A study of Homo sapiens with 12 samples.

Results

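The nuclear genes for the subunits of the 5 oxidative phosphorylation complexes were examined in HT29 cells, a line from a human colorectal adenocarcinoma. They were chosen by symbol among the protein-coding IDs of the count table. The rule used no values, but it was set with earlier results of these data known. NDUFA, NDUFB, NDUFC, NDUFS and NDUFV genes with NDUFAB1 stood for complex I, SDHA to SDHD for complex II, UQCR genes with CYC1 for complex III, COX4I to COX8 genes for complex IV, and ATP5F1, ATP5M and ATP5P genes for complex V. Assembly factors were left out. This gave 88 genes of the 60675 IDs, with 38 in complex I, 4 in complex II, 10 in complex III, 17 in complex IV and 19 in complex V. By this rule NDUFA4, which is also described as a subunit of complex IV, was counted in complex I, and the readthrough gene ATP5MF-PTCD1, which shares exons with ATP5MF and PTCD1, was counted in complex V.

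The cells were kept for 24 h with a water extract of Aconitum carmichaeli Debeaux (ACD) at 20, 100 or 500 µg/mL, called low, medium and high dose here, or with vehicle. The vehicle was PBS holding 2% DMSO, in which the extract stock was also made, and treatments were added to wells that held growth medium. Each of the 4 groups had 3 libraries, 12 in all, and no source states that the libraries of a group came from separate cultures, so that p-values may measure technical spread only. The titles and the treatment field name ACD, while a longer treatment note kept with the libraries speaks of Poria cocos, and groups were taken from the titles. Library totals were between 15941255 and 33866644 expected counts, the estimated read numbers that RSEM gives per gene. High-dose replicate 2 (sample 2-2-1) had the lowest total and stood apart from the other libraries: its log2 differences from the rest of its group had an SD of 0.502 over 10626 genes whose mean exceeded 5 CPM (counts scaled to library size by TMM), against 0.102 to 0.293 in the other 11 libraries. Its log2 level fell by 0.194 per doubling of transcript length, whereas the slope of the other 11 libraries was between -0.0885 (vehicle replicate 1) and 0.102. Results at the high dose are therefore given with and without this library, other than shares within gene families, which include it. Of 9 markers of the colon epithelium, 6 were at 148 CPM or more in all 12 libraries, among them EPCAM between 471 and 635 CPM and KRT8 between 5637 and 7321 CPM. The other markers were low, namely the intestinal factors CDX2 (4.61 to 6.75 CPM) and CDX1 (0.92 to 1.54 CPM) and CEACAM5 (4.97 to 11.6 CPM). Of the 8 markers of leukocytes, fibroblasts and endothelium none exceeded 2.57 CPM (PECAM1), a level above that of CDX1, and COL1A2 had no count in any library.

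Oxidative phosphorylation is carried out in the inner mitochondrial membrane. Complex I (NADH dehydrogenase) and complex II (succinate dehydrogenase) pass electrons to ubiquinone, complex III (cytochrome bc1) passes them to cytochrome c, and complex IV (cytochrome c oxidase) passes them to oxygen, while the proton gradient built on the way drives complex V (ATP synthase). Complex II is encoded in the nucleus alone, and each of the other complexes also holds subunits made from mitochondrial DNA. Many nuclear subunit genes have binding sites for NRF1, GABPA (an ETS factor), ERR receptors or YY1 close to their start.

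The promoters of the nuclear subunits held the letters of such sites in a larger share than the promoters of all genes did. RefSeq's promoter table (GRCh38.p14) held 82 promoters of 69 of the 88 genes, and the 280 bases from 250 before the start to 30 from the start on were searched on both strands. GCGCATGC, the core of the NRF1 site, was in 18.3% of the subunit promoters and in 2.98% of all 35116 promoters of the table. CCGGAAG, an ETS site, was in 26.8% of the subunit promoters and 9.94% of all. AAGGTCA, an ERR site, was in 13.4% against 3.70%, and AAGATGGC, a YY1 site, in 12.2% against 2.43%. At least 1 of the 4 was in 50% of the subunit promoters and in 17.6% of all, with shares of 46.2% in complex I (39 promoters), 42.9% in complex III (7 promoters), 37.5% in complex IV (16 promoters) and 70.6% in complex V (17 promoters). In complex II, 2 of 3 promoters held at least 1. Not every complex held each of the 4: the NRF1, ERR and YY1 letters were in 0 of the 7 promoters of complex III. The YY1 letters were in 0 of the 16 of complex IV. Each other share of a complex was above that of all promoters, with the ETS letters in complex I at 12.8% against 9.94%. A match of letters is not a measured binding site, the table holds genes of every type, and nearby starts of 1 gene share bases.

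To show these letters in place, the promoter of 1 gene per complex is given, namely that of the gene whose p was smallest without high-dose replicate 2 among those with a promoter in the table. Each runs from 250 bases before the start to 30 from the start on, on the strand of the gene, with matches in capitals. NDUFB4, on the plus strand at chr3:120596086-120596365, holds the NRF1 core on both strands in 1 overlapping stretch and an ERR match. SDHD, on the plus strand at chr11:112086623-112086902, holds the same overlapping NRF1 stretch, an ETS match and an ERR match. UQCR11, on the minus strand at chr19:1605433-1605712, holds 2 ETS matches on opposite strands. COX7B, on the plus strand at chrX:77899218-77899497, holds none of the 4. ATP5PF, on the minus strand at chr21:25735025-25735304, holds the NRF1 core, a YY1 match and an ETS match, and its gene shares exon bases with GABPA on the opposite strand.
NDUFB4: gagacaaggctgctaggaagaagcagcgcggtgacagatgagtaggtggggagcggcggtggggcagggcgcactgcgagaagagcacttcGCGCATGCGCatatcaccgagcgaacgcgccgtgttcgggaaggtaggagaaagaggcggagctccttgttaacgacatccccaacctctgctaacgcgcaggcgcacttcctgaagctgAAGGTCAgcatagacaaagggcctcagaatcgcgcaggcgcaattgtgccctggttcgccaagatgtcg
SDHD: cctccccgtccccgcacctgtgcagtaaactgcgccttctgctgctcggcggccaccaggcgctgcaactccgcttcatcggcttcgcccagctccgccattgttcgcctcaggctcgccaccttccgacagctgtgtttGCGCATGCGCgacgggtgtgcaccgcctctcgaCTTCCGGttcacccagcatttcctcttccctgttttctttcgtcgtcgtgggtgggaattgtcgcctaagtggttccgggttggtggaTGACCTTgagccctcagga
UQCR11: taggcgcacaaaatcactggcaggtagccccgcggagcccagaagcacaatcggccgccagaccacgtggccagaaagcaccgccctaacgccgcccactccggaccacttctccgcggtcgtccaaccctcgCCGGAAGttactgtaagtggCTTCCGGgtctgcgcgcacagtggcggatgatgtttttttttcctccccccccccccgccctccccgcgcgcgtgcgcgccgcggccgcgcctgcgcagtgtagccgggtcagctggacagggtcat
COX7B: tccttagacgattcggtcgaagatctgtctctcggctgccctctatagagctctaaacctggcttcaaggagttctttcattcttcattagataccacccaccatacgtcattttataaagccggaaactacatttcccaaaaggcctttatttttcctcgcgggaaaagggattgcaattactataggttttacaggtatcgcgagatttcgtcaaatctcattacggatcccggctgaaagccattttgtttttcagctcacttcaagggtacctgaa
ATP5PF: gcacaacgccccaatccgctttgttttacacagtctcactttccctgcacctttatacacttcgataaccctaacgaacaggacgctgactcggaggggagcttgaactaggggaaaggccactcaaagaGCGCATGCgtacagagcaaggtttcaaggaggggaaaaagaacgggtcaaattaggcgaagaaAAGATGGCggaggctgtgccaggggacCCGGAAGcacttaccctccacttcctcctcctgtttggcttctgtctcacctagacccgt

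In vehicle, the subunits of complex IV had the highest median level per length and those of complex I the lowest, on the scale of CPM per kb of the median protein-coding transcript. The median over the tested genes was 235 CPM per kb in complex IV, 149 in complex II, 142 in complex V, 134 in complex III and 76.0 in complex I. Within each complex the levels differed widely, and the ranges of the complexes overlapped. The highest were ATP5MF, a membrane subunit of complex V, at 662 ± 104 CPM per kb (SD, n = 3 libraries), COX6B1, a subunit of complex IV on the side of the intermembrane space, at 553 ± 85.4, NDUFB9, an accessory subunit of complex I, at 412 ± 55.6, SDHC, a membrane anchor of complex II, at 302 ± 15.3, and UQCRH, the hinge protein of complex III, at 273 ± 36.2. ATP5F1B, the catalytic beta subunit of the ATP synthase, had 651 ± 29.2 CPM per kb and could not be told from ATP5MF by their spread, and COX8A (548 ± 117) could not be told from COX6B1. These levels depend on the transcript that is taken as the length: with the Ensembl canonical transcript SDHC had 106 CPM per kb and ATP5MF 470.

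HT29 cells expressed the ubiquitous isoforms of complex IV and not its tissue isoforms. COX4I2, the isoform of lung, COX6A2, of heart and muscle, COX7B2 and COX8C, of testis, had no count in any of the 12 libraries. COX7A1, of heart and muscle, had at most 5 expected counts per library, and COX6B2, of testis, at most 17.9. Shares within a family are given of its summed CPM per kb. COX6B2 took 0.0480% ± 0.0229 of its family in vehicle and 0.0519% ± 0.0193 at the high dose (SD, n = 3 libraries). In the COX7A family the vehicle shares were 81.1% ± 0.462 for COX7A2 and 18.8% ± 0.494 for COX7A2L, a factor of supercomplex assembly, and the high-dose shares were 80.3% ± 1.56 and 19.6% ± 1.60. The 3 genes that encode the same c subunit of the ATP synthase ring were all expressed, with vehicle shares of 42.6% ± 1.04 for ATP5MC2, 34.3% ± 0.574 for ATP5MC3 and 23.1% ± 1.45 for ATP5MC1. At the high dose these were 40.8% ± 5.56, 34.2% ± 1.97 and 25.0% ± 3.78. All high-dose shares given here include replicate 2 and were not taken without it. The SD of ATP5MC2 was 5.56 at the high dose against 1.04 in vehicle, so that these means cannot show whether a share moved. ATP5MGL had at most 3.01 expected counts, and these 6 genes without enough counts (COX4I2, COX6A2, COX7A1, COX7B2, COX8C and ATP5MGL) were not tested.

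The remaining 82 genes were tested with the 15374 genes that passed the filter on low counts, by edgeR's quasi-likelihood test of each dose against vehicle, with adjustment over all genes tested. With all 12 libraries, no nuclear subunit passed an adjusted p of 0.05 at any dose. At the high dose 0 of 82 were called, where 5.77% of all genes tested were, or 2.93% with a fold over 1.5 as well. At the medium dose 0 of 82 were called against a background of 1.01%, and at the low dose 0 of 82 against 0.124%. DESeq2's Wald test called 0 at each dose too. At an unadjusted p under 0.05 there was 1 gene at the high dose (ATP5F1D, the delta subunit of the F1 part), 4 at the medium dose (ATP5F1D, COX8A, NDUFA3 and NDUFS7) and 3 at the low dose (ATP5MC2, NDUFA3 and NDUFS8).

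At the low and medium doses the medians of every complex lay below 0. At the low dose the median log2 fold change was -0.23 in complex I, -0.07 in complex II, -0.15 in complex III, -0.24 in complex IV and -0.16 in complex V, with 77 of 82 genes below 0. At the medium dose the medians were -0.22, -0.08, -0.14, -0.24 and -0.18 in the same order, again with 77 of 82 below 0. Over all genes tested the median was -0.001 at the low and -0.01 at the medium dose. These medians rest in part on vehicle replicate 1, in which 73 of the 82 genes had their highest vehicle level. Without it, they were between -0.12 (complex IV) and -0.02 (complex II) at the low dose, and between -0.12 (complex IV) and -0.001 (complex II) at the medium dose. Every comparison used the same vehicle libraries, so that the doses are not independent of each other.

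At the high dose the medians with all libraries lay close to 0, at 0.03 in complex I, 0.01 in complex II, 0.08 in complex III, 0.04 in complex IV and 0.05 in complex V. They hid libraries that went opposite ways. The score of a complex is the mean log2 CPM of its tested genes minus the mean of the 3 vehicle libraries. In complex I the scores of high-dose replicates 1, 2 and 3 were -0.30, 0.46 and -0.22, where vehicle replicates 1, 2 and 3 were at 0.20, -0.06 and -0.14. In complex IV the high-dose scores were -0.34, 0.52 and -0.18, in complex V -0.28, 0.42 and -0.16, and in complex III -0.25, 0.55 and -0.21. Complex II showed the same order on a smaller scale, with -0.14, 0.32 and -0.13, and it lay nearest to the vehicle mean in 10 of the 12 libraries. In each complex replicate 2 lay above every vehicle library and replicates 1 and 3 lay below them all, so that the vehicle libraries stood between the high-dose ones. Replicate 2 gave the highest CPM of all 12 libraries for 67 of the 82 genes, and 77 of the 82 lay above the vehicle mean in it, against 2 in replicate 1 and 6 in replicate 3.

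The medium-dose scores lay within a narrow range, from -0.23 to -0.17 in complex I, from -0.10 to -0.06 in complex II, from -0.18 to -0.11 in complex III, from -0.25 to -0.18 in complex IV and from -0.17 to -0.15 in complex V. In complexes I, IV and V all 3 medium-dose libraries were below all 3 vehicle libraries. At the low dose, replicate 3 was higher than the other two in every complex (-0.08 in complex I and 0.02 in complex II), and it lay within the vehicle range in complexes I, IV and V and above the vehicle mean in complexes II and III. At the low and medium doses and at the high dose without replicate 2, the mean score of complex II was nearest to vehicle and those of complexes I and IV were farthest. Complex IV lay below complex V in each medium-dose library, with -0.25, -0.18 and -0.20 against -0.17, -0.16 and -0.15. The scores of the complexes moved together from library to library, and the differences between complexes were not tested.

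**Figure D1:**
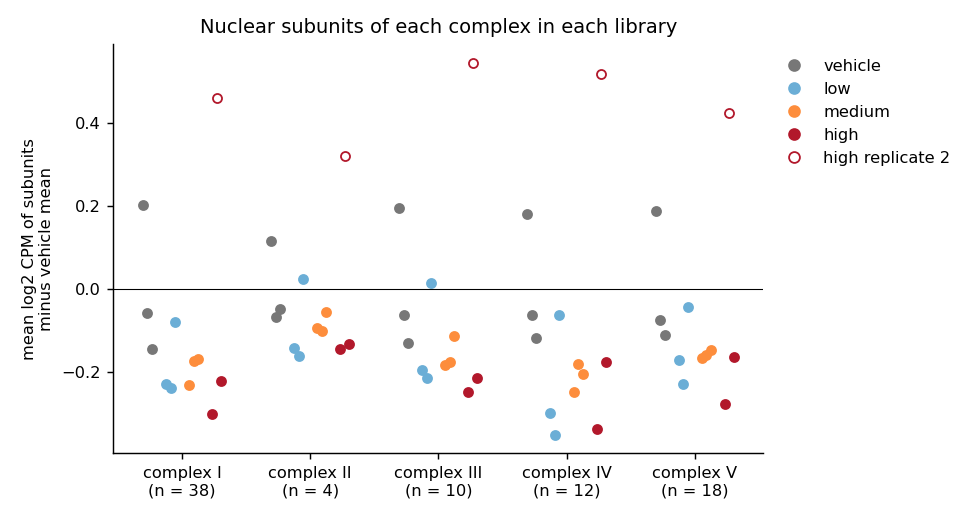
Score of each complex in each library, as the mean log2 CPM of its tested genes minus the vehicle mean (y axis, log2 units), for the 5 complexes (x axis, with the number of genes). Each point is a library, and high-dose replicate 2 (open) lies above all others in every complex, at 0.46 in complex I, while high-dose replicates 1 and 3 lie below the vehicle libraries.

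Without high-dose replicate 2, the test was run again on the other 11 libraries (15674 genes tested). The background rose as well: 18.7% of all genes were called at the high dose, 8.89% lower and 9.83% higher, and 4.9% with a fold over 1.5. Of the 82 nuclear subunits 20 were called, 19 lower (23.2%) and 1 higher, and 79 of the 82 log2 fold changes were below 0. The 19 decreases were small, between -0.67 and -0.22 on the log2 scale, and 1 of them (NDUFA2) passed a fold of 1.5. The called decreases were 12 of 38 genes in complex I, 1 of 4 in complex II, 1 of 10 in complex III, 0 of 12 in complex IV and 5 of 18 in complex V. The 0 of complex IV does not set it apart, since 7 of its 12 genes had an unadjusted p under 0.05 in edgeR's test, DESeq2's Wald test called 6 of them, and its median log2 fold change of -0.29 was the lowest of the 5. The medians were -0.27 in complex I, -0.13 in complex II, -0.23 in complex III and -0.25 in complex V, against -0.01 over all genes tested. These decreases, too, rest in part on vehicle replicate 1: the median of the 82 genes was -0.26, and it was -0.14 when that library was left out as well, against -0.31 when vehicle replicate 2 or 3 was. The number called changed with the settings: DESeq2's Wald test called 32 of 84, with 31 lower. Over all 29535 genes with a count in these libraries it called 3.78% lower, a share that cannot be set beside those of edgeR, since these genes were not filtered on low counts. The edgeR test on vehicle and high-dose libraries alone called 6, with 5 lower against 5.16%, and leaving out vehicle replicate 3 as well gave 43, with 42 lower against 10.4%. At the medium dose, where 6.87% of all genes were then called, NDUFB8 was the 1 subunit called (log2 fold change -0.27, adjusted p = 0.0262 from edgeR), and at the low dose, with 2.03% called, it was NDUFB4 (-0.29, adjusted p = 0.0475).

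**Figure D2:**
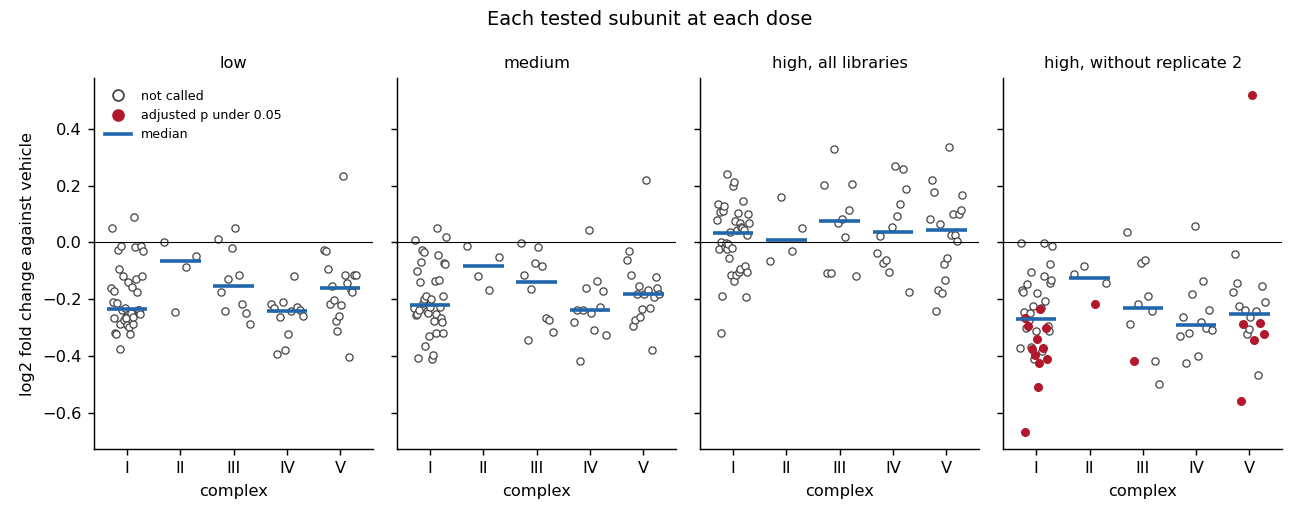
Log2 fold change against vehicle (y axis) of each of the 82 tested nuclear subunits (points) by complex (x axis), at the low, medium and high dose with all libraries and at the high dose without replicate 2. Filled points passed an adjusted p of 0.05 and bars are medians, and the 20 filled points all lie in the panel without replicate 2, where the medians lie between -0.29 (complex IV) and -0.13 (complex II).

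Complex I was the complex with most called genes, and all 12 of them were accessory subunits, which surround the catalytic core. The 31 accessory genes had a median of -0.30 without high-dose replicate 2. The 7 core genes, which carry the flavin and the iron-sulfur clusters, had a median of -0.13 with 0 called by edgeR in that fit, and 1 at an unadjusted p under 0.05 (NDUFS7). This 0 changed with the settings. NDUFS7 was called lower with an offset for length and GC content (adjusted p = 0.0172 from edgeR), and NDUFS7 and NDUFS8 without vehicle replicate 3 as well. The core genes also had longer transcripts, with a median of 868 bases against 638. With an offset for transcript length the medians were -0.23 for the accessory and -0.07 for the core genes. NDUFB4, an accessory subunit of the membrane arm (ENSG00000065518, chromosome 3 of GRCh38 from 120596328 to 120602507), had 121, 100.1 and 95.2 CPM in vehicle and 80.3, 122 and 85.8 CPM at the high dose. The high-dose libraries other than replicate 2 were below all vehicle libraries, and so were the 3 medium-dose libraries (85.6, 93.0 and 91.7 CPM) and the 3 low-dose libraries (85.2, 86.0 and 87.4 CPM). Its log2 fold change at the high dose was -0.14 (standard error 0.14, adjusted p = 0.650 from edgeR) with all libraries and -0.34 (standard error 0.08, adjusted p = 0.00791) without replicate 2.

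NDUFS5, an accessory subunit facing the intermembrane space, had 102, 82.8 and 78.2 CPM in vehicle and 60.8, 141 and 70.2 CPM at the high dose. Its log2 fold change was 0.04 with all libraries (adjusted p = 0.952 from edgeR) and -0.41 without replicate 2 (standard error 0.11, adjusted p = 0.0182). The sign thus turned with that library. NDUFA6, a LYR-motif subunit that binds the acyl carrier protein, had 42.3, 37.1 and 35.0 CPM in vehicle and 29.0, 52.2 and 32.7 CPM at the high dose, and fell by 0.30 on the log2 scale without replicate 2 (adjusted p = 0.0162 from edgeR). Its medium-dose libraries (36.5, 37.7 and 38.0 CPM) overlapped with vehicle.

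NDUFA2 (ENSG00000131495, chromosome 5 from 140638740 to 140647771), an accessory subunit with a thioredoxin-like fold, showed the largest decrease of the 82 genes without replicate 2, at -0.67 (standard error 0.16, adjusted p = 0.0186 from edgeR). It had 55.8, 42.5 and 36.4 CPM in vehicle, 26.5, 52.9 and 29.5 CPM at the high dose, and 31.9, 34.3 and 34.9 CPM at the medium dose. Its exons share bases with IK and TMCO6 on the opposite strand. NDUFA3 had the smallest p of complex I with all libraries, with 96.6, 76.4 and 77.5 CPM in vehicle and 64.9, 81.7 and 73.0 CPM at the high dose (log2 fold change -0.19, adjusted p = 0.343 from edgeR). Replicate 2 lay within the vehicle range for this gene, unlike for most others. At the other end, NDUFA10 and NDUFS1 hardly moved without replicate 2: NDUFA10 had 93.3, 94.5 and 94.7 CPM in vehicle and 92.8, 123 and 95.2 CPM at the high dose, with a log2 fold change of -0.002 (standard error 0.05), and NDUFS1, a core subunit with iron-sulfur clusters, had -0.003 (standard error 0.06).

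In complex II, the 2 membrane anchors and the 2 catalytic subunits were tested. SDHC, an anchor that takes part in ubiquinone binding, had 147, 133 and 136 CPM in vehicle and 119, 170 and 120 CPM at the high dose. It was the 1 gene of the complex called without replicate 2, at -0.22 (standard error 0.07, adjusted p = 0.0323 from edgeR), and it lost the call when the fit had an offset for transcript length (adjusted p = 0.0979). SDHD, the other anchor, had -0.14 (adjusted p = 0.209). SDHA, the flavoprotein, had 276, 274 and 264 CPM in vehicle and 256, 277 and 247 CPM at the high dose, and its log2 fold change was -0.06 with and -0.11 without replicate 2, so that this gene was little affected by that library. SDHB, the iron-sulfur subunit, had 90.8, 68.9 and 69.3 CPM in vehicle and 71.0, 113 and 72.3 CPM at the high dose, with vehicle replicate 1 apart from the other two.

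In complex III, the 6 small subunits had a median of -0.35 without replicate 2, and the 2 core proteins and the 2 catalytic subunits had medians of -0.07 and -0.08. UQCR11, a small membrane subunit (ENSG00000127540, chromosome 19 from 1597169 to 1605473), had 73.8, 58.2 and 54.0 CPM in vehicle, 47.7, 81.1 and 44.8 CPM at the high dose, and 45.6, 48.3 and 52.4 CPM at the medium dose. It was called without replicate 2, at -0.42 (standard error 0.12, adjusted p = 0.0375 from edgeR). UQCRQ had a larger difference of -0.50 that did not pass (adjusted p = 0.0696). UQCRB, which binds ubiquinone, had 105, 88.9 and 78.9 CPM in vehicle and 75.3, 188 and 80.4 CPM at the high dose. Its log2 fold change of 0.33 with all libraries (adjusted p = 0.567 from edgeR) was the highest of the complex, where 7 of 10 genes were above 0. Replicate 2 alone held that value, which was -0.22 without it. CYC1, the cytochrome c1 that hands electrons to cytochrome c, had 153, 147 and 153 CPM in vehicle and 154, 212 and 156 CPM at the high dose. Its 3 high-dose libraries all lay above vehicle, which held for 1 of the 82 genes. The share over all genes tested was not taken, so that this count cannot be read as few or many. Without replicate 2 the log2 fold change of CYC1 was 0.04 (adjusted p = 0.716 from edgeR). UQCRHL, a gene very similar to UQCRH, took 2.28% ± 0.319 of the summed CPM per kb of the pair in vehicle, and reads could be split between them.

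In complex IV, 11 of the 12 tested genes had a negative log2 fold change without replicate 2, and none was called. COX7B, a small membrane subunit, was the nearest, with 128, 99.6 and 94.5 CPM in vehicle and 82.0, 213 and 91.0 CPM at the high dose. Its log2 fold change was 0.26 with all libraries (adjusted p = 0.672 from edgeR) and -0.30 without replicate 2 (standard error 0.10, adjusted p = 0.0567), and with the offset for transcript length its adjusted p was 0.0396. COX4I1, the main regulatory subunit, had 214, 159 and 161 CPM in vehicle and 142, 239 and 141 CPM at the high dose, with -0.33 without replicate 2 (adjusted p = 0.0642). COX5A, a subunit on the matrix side, had 179, 151 and 144 CPM in vehicle and 128, 220 and 135 CPM at the high dose, with -0.26 (adjusted p = 0.0679). In all 3 genes the medium-dose libraries lay below the vehicle libraries. COX6B1 moved less, with 318, 244 and 248 CPM in vehicle and 239, 279 and 236 CPM at the high dose.

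In complex V, the called decreases were ATP5F1E of the F1 part, ATP5PB and ATP5PF of the peripheral stalk, ATP5MC1 of the c ring and ATP5MG of the membrane part. ATP5F1E, the epsilon subunit (ENSG00000124172, chromosome 20 from 59025475 to 59032345), had 328, 266 and 243 CPM in vehicle and 178, 369 and 200.2 CPM at the high dose, and fell by 0.56 on the log2 scale without replicate 2 (standard error 0.13, adjusted p = 0.0159 from edgeR). ATP5PF, subunit F6 of the stalk, had 40.8, 43.2 and 40.1 CPM in vehicle and 31.3, 69.7 and 34.8 CPM at the high dose. It had a log2 fold change of 0.11 with all libraries and -0.32 without replicate 2 (standard error 0.08, adjusted p = 0.00781), the smallest adjusted p of the 82 genes. Its vehicle libraries lay close together, and vehicle replicate 1 was not the highest of them.

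The main catalytic subunit ATP5F1B had 585, 537 and 550 CPM in vehicle and 532, 865 and 551 CPM at the high dose, and its log2 fold change without replicate 2 was -0.04 (standard error 0.06, adjusted p = 0.672 from edgeR). ATP5F1D, the delta subunit, was the 1 gene whose 3 high-dose libraries all lay below vehicle with replicate 2 included, with 87.6, 64.9 and 67.5 CPM in vehicle and 60.5, 61.2 and 64.2 CPM at the high dose (log2 fold change -0.24, adjusted p = 0.239 from edgeR). The readthrough gene ATP5MF-PTCD1 was the 1 member called higher, with 6.33, 7.94 and 7.16 CPM in vehicle and 9.95, 6.02 and 10.7 CPM at the high dose, and a log2 fold change of 0.52 without replicate 2 (standard error 0.12, adjusted p = 0.00822). It went against its partner ATP5MF, which had 245, 196 and 183 CPM in vehicle and 179, 256 and 167 CPM at the high dose, and reads from their shared exons could be assigned to either.

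**Figure D3:**
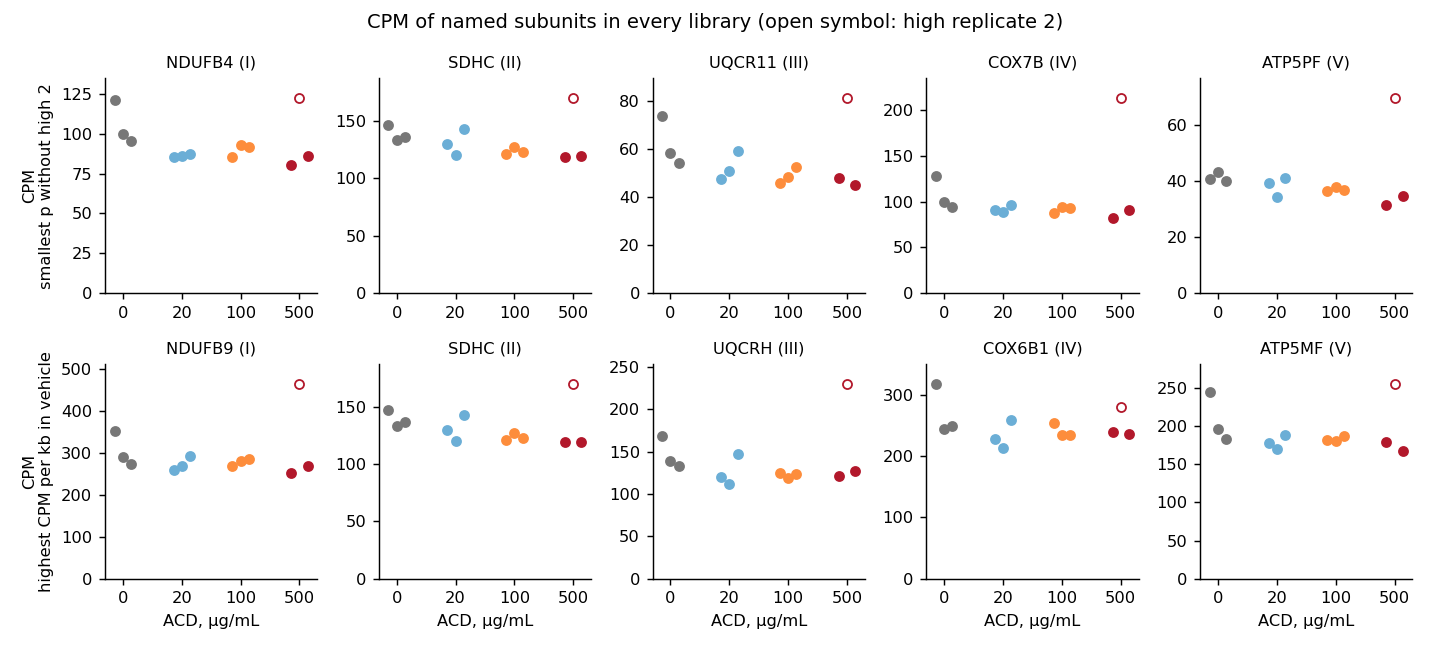
CPM (y axes, from 0) in each of the 12 libraries by dose (x axes, µg/mL) for the subunit of each complex with the smallest p without high-dose replicate 2 (upper row) and for the one with the highest CPM per kb in vehicle (lower row). High-dose replicate 2 (open) is the highest library for NDUFB4 at 122 CPM and for COX7B at 213 CPM, while the other high-dose libraries lie below the vehicle libraries.

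Genes whose libraries did not overlap were also counted, without a test. All 3 high-dose libraries were below all vehicle libraries for 1 of the 82 genes, against 11.5% of all genes tested. With replicate 2 left out this held for 57 of 82 (69.5%), against 25.2% of all genes: 27 in complex I, 3 in complex II, 6 in complex III, 10 in complex IV and 11 in complex V. At the medium dose it held for 28 of 82 (34.1%), against 14.1%, and at the low dose for 7 of 82 (8.54%), against 9.61%. The medium-dose count differed from the test, in which 0 of 82 were called with all libraries. Without high-dose replicate 2 the test called 1 at the medium dose, where 6.87% of all genes were called. The low-dose share did not exceed that of all genes, so that this count does not set the subunits apart. The 7 genes were NDUFA3, NDUFA7, NDUFA8, NDUFB4, NDUFB7 and NDUFB8 of complex I and SDHB of complex II.

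Most nuclear subunits have short transcripts, and length moved with the result. Of the 82 genes, 60 had a median protein-coding transcript under 1000 bases. In this class the median log2 fold change at the high dose without replicate 2 was -0.28 for the subunits and -0.08 for the 3874 other genes, and in the class from 1000 to 2000 bases it was -0.14 for 14 subunits and -0.04 for 4474 other genes. In high-dose replicate 2 the medians of the shortest class were 0.48 for the subunits and 0.12 for the other genes, and in vehicle replicate 1 they were 0.22 and 0.07. Other short genes thus moved the same way as the subunits in each of these libraries, by smaller amounts. Across the 82 genes the log2 fold change without replicate 2 had a Pearson r of 0.45 with log2 length (Spearman 0.39), and across 15196 genes 0.14 (Spearman 0.22). The genes of a sample are not independent replicates, and these values are descriptions only.

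An offset per library for transcript length left 21 of the 82 genes called without replicate 2, 20 of them lower (10.3% of all genes were called lower), and 16 of these 21 were among the 20 above. COX4I1, COX5B and COX7B of complex IV were then called lower. The medians were -0.20 in complex I, -0.11 in complex II, -0.19 in complex III, -0.21 in complex IV and -0.18 in complex V. With an offset for length and GC content 19 were called, 18 of them lower (11.3% of all genes), and 15 of these 19 were among the 20. With all 12 libraries and either offset 0 were called at each dose, and DESeq2 without an offset also called 0.

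**Figure D4:**
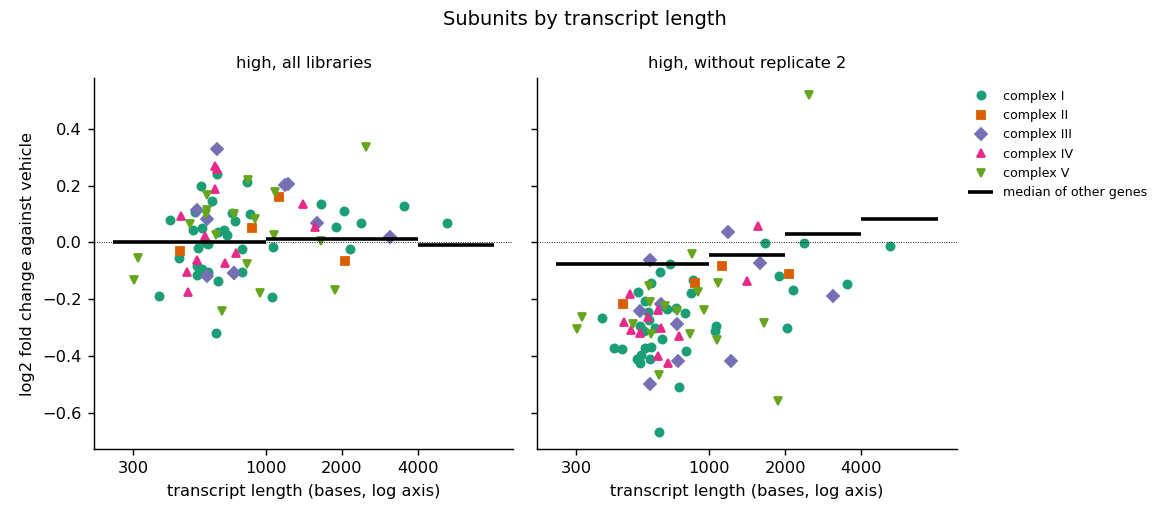
Log2 fold change at the high dose (y axis) of each tested nuclear subunit by transcript length (x axis, bases, log axis), with all libraries (left) and without replicate 2 (right). Symbols mark the complex and black lines the median of other genes in 4 length classes, and without replicate 2 most subunits under 1000 bases lie below the line of other genes at -0.08.

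The subunits made from mitochondrial DNA were lower than in vehicle in all 3 high-dose libraries, replicate 2 included. Their scores were -0.89, -0.88 and -1.49, where the vehicle libraries were at 0.19, -0.15 and -0.05, and 8 of 13 were called lower with all libraries and 9 of 13 without replicate 2 (5.77% and 18.7% of all genes were called in these fits). MT-CO3, a core subunit of complex IV, had 16199, 12872 and 12674 CPM in vehicle and 6538, 6126 and 5007 CPM at the high dose (log2 fold change -1.24, standard error 0.15, adjusted p = 0.000460 from edgeR). MT-ND4 and MT-ND3, membrane subunits of complex I, fell by 1.60 and 1.31 on the log2 scale (adjusted p = 0.000968 and 0.00114). At the medium and low doses 0 of 13 were called by edgeR, with 6 and 1 at an unadjusted p under 0.05. Of the 6 at the medium dose, 4 had a negative log2 fold change and 2 a positive one, namely MT-ND2 (0.65) and MT-ND1 (0.61) of complex I. MT-ND2 had 4079, 3418 and 4011 CPM in vehicle and 6318, 6109 and 5579 CPM at the medium dose, without overlap. The difference between the nuclear and the mitochondrial genes was not itself tested. Chromosome M as a whole held 14.0% to 16.6% of the counts at the high dose and 7.41% to 11.05% in the other groups, so that 8 of these mRNAs fell while the share of the chromosome was higher. Since counts are relative, fewer transcripts per cell and more RNA of other kinds cannot be told apart.

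Among the nuclear genes around the complexes, the assembly factors had medians below 0 at the high dose without replicate 2, between -0.40 (complex II) and -0.10 (complex I), and the regulators had a median of -0.02. Counts called in that fit are to be read against the 8.89% of all genes called lower and the 9.83% called higher. Of the 18 complex I assembly factors 0 were called with all libraries (2 at an unadjusted p under 0.05), and 4 were called lower without replicate 2, with a median of -0.10. For the 22 tested complex IV assembly factors 0 were called with all libraries (0 at an unadjusted p under 0.05), and 9 were called lower without replicate 2, with a median of -0.28. SURF1, needed to insert heme into complex IV, had -0.31 with all libraries (adjusted p = 0.272 from edgeR) and -0.52 without replicate 2 (adjusted p = 0.000767). The called genes were 2 of 4 for complex II, 1 of 9 for complex III and 2 of 5 for complex V, all lower and all without replicate 2 only. SDHAF3 of complex II had -0.46 and DMAC1 of complex I -0.63 in that fit. With replicate 2 their values were 0.01 and -0.27, and none of these assembly factors was called by edgeR with all libraries.

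Of the 20 electron carriers and entry points, CHDH, a choline dehydrogenase that feeds electrons to ubiquinone, was the 1 called with all libraries, where 5.77% of all genes were. It had 59.1, 55.4 and 53.3 CPM in vehicle and 45.1, 38.7 and 49.7 CPM at the high dose, with no overlap, and its log2 fold change was -0.32 (standard error 0.08, adjusted p = 0.0451 from edgeR) and -0.23 without replicate 2 (adjusted p = 0.0170). Without replicate 2, 3 of the 20 were called lower and 2 higher, where 18.7% of all genes were called, so that the counts do not set this list apart. The 2 were GPD2, the mitochondrial glycerol-3-phosphate dehydrogenase (0.24, adjusted p = 0.0190), and ETFDH, which takes electrons from fatty acid oxidation (0.29, adjusted p = 0.0438).

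Among regulators, 13 of 14 were tested, and PPARGC1A had too few counts. None was called with all libraries, and 0 had an unadjusted p under 0.05. Without replicate 2, the coactivators PPARGC1B and PPRC1 were called higher, at 0.33 (adjusted p = 0.0166 from edgeR) and 0.26 (adjusted p = 0.0109), and ATP5IF1, the inhibitor of the ATP synthase, was called lower at -0.36 (adjusted p = 0.00140), which makes 3 of 13 called where 18.7% of all genes were. NRF1 (-0.04), GABPA (0.01), ESRRA (0.01), YY1 (-0.02) and TFAM (-0.02), the factors that bind subunit promoters or mitochondrial DNA, were not called in that fit.

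Ribosomal protein genes showed scores of the same order across the high-dose libraries. The cytosolic ribosomal proteins, which also have short transcripts (median length 683 bases, against 661 for the 82 subunits), had scores of -0.30, 0.53 and -0.19 at the high dose, and 10 of 83 (12%) were called lower without replicate 2, with a median of -0.21. The mitochondrial ribosomal proteins (median length 982 bases) had scores of -0.15, 0.45 and -0.13, with 11 of 78 (14.1%) called lower and a median of -0.13. Both shares were nearer to the 8.89% of all genes called lower in that fit than the 23.2% of the subunits was. The share of the subunits changed with the settings. With vehicle and high-dose libraries alone 5 of 82 were called lower, against 5.16% of all genes, and the ribosomal lists were not counted in that fit. At an unadjusted p under 0.05 from edgeR, in either direction, there were 41 of 83 cytosolic and 25 of 78 mitochondrial ribosomal genes. The subunits had 45 of 82 and all genes tested 5212 of 15674. Log2 fold changes were below 0 for 82 of 83, 60 of 78 and 79 of 82 genes of the 3 lists. Of the complex IV assembly factors, 9 of 22 were called lower, a larger share than that of the subunits. Both ribosomal lists had their highest score in high-dose replicate 2, as the nuclear subunits did.

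**Figure D5:**
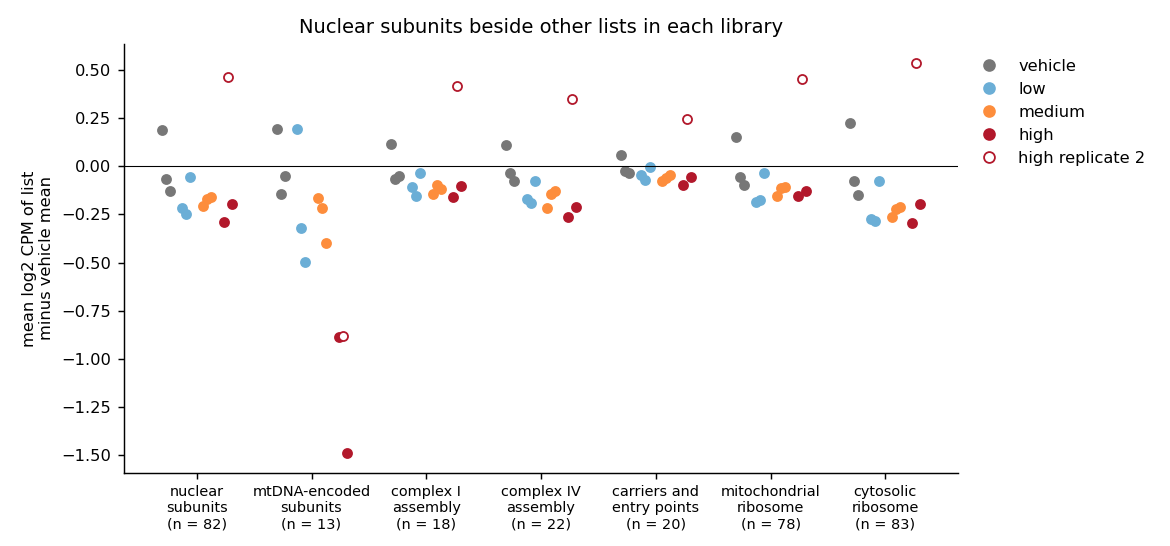
Score of the 82 nuclear subunits and of 6 other lists in each library (y axis, mean log2 CPM of the list minus the vehicle mean), with the number of genes tested per list (x axis). The subunits made from mitochondrial DNA lie between -1.49 and -0.88 in all 3 high-dose libraries, while in the nuclear subunits, the assembly factors of complexes I and IV, the carriers and entry points and both ribosomal lists high-dose replicate 2 (open) is the highest library and the other 2 high-dose libraries lie below the vehicle libraries.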

How the data were processed

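RNA was sequenced in 12 HT29 libraries, 3 per group. After trimming (Trim Galore) and alignment (STAR), the authors deposited expected counts per gene from RSEM (version 1.3.3 in the submitters' processing notes), not normalized, which were rounded to whole numbers before the tests. The library kit keeps strand, and the strand setting of RSEM is not given in the sources used here, so the values of the 46 members that share exon bases with another gene are uncertain, as are those of members with near-identical copies. Of the IDs, 93.2% were in GENCODE release 44 (GRCh38), which gave positions and transcript lengths. No other columns were present.

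Genes were filtered with filterByExpr, scaled by TMM and tested in a joint fit of the 4 groups by edgeR 4.0.16 (R 4.3.3), with the Benjamini-Hochberg adjustment over all genes tested per dose. CPM values are from edgeR's cpm function and scores from log2 CPM with a prior count of 2. DESeq2 1.42.0, offsets for transcript length and GC content, other filters and scalings, a replicate block and each library left out were alternatives. The fits were tested on simulated data first. The members and lists were chosen with earlier results of these data known. The genes named are the 3 with the smallest p per complex with and without high-dose replicate 2, the highest per length in vehicle, and up to 3 per list with an adjusted p under 0.05 at the high dose. NDUFB8, NDUFS1, NDUFS7, ATP5F1B, COX5B, the isoform families, the other members called and the other list genes named were chosen after their values were seen. The total per library limits the precision, and SDs and standard errors cover the spread between libraries.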

Additional observations from a re-analysis of the deposited data

How the results depend on the processing

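The count of 0 subunits called at each dose with all 12 libraries was also 0 under every alternative other than leaving out high-dose replicate 2. Over leaving out each library in turn, the number called ranged from 0 to 20 at the high dose and from 0 to 1 at the medium and at the low dose. In the same fits the median log2 fold change at the high dose ranged from -0.27 to 0.15 in complex I, from -0.13 to 0.11 in complex II, from -0.23 to 0.15 in complex III, from -0.29 to 0.22 in complex IV and from -0.25 to 0.21 in complex V, the lowest without high-dose replicate 2. For ATP5PF and NDUFS5 the log2 fold changes of -0.32 and -0.41 without that library were called with the opposite sign to the uncalled values with all libraries, and their ranges over leaving out each library were -0.32 to 0.32 and -0.41 to 0.26. The number called without high-dose replicate 2 was 32 with DESeq2's Wald test, 6 with vehicle and high-dose libraries alone, and 16 to 43 with a vehicle library left out as well, the highest without vehicle replicate 3. The cause of these changes was not tested.

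The correlation of the deviations of same-numbered libraries was between -0.264 and 0.139, and that of differently numbered ones between -0.240 and 0.312. These ranges overlap, and with 3 libraries per group they cannot decide whether the replicate number paired the libraries. With the replicate number as a block, 0 subunits were called at each dose with all libraries, and 16 without high-dose replicate 2, of which 13 were among the 20 of the fit without a block. The levels per kb moved with the longest transcript as the length, to 66.9 for NDUFB9, 99.4 for SDHC, 214 for UQCRH, 344 for COX6B1 and 269 for ATP5MF. Groups of 3 libraries limit all tests.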
